A study of Arabidopsis thaliana with 30 samples.

Results

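The organellar ribosomal protein genes of Arabidopsis thaliana were followed in shoots and roots of seedlings that differed in nitrogen supply or in the activity of the transcription factor AtNIGT1.2. The members were all genes measured by a probe set of a single locus whose deposited description names a 30S or a 50S ribosomal protein, and they were 32 of 21227 genes with such a probe set. Of these, 13 were described as proteins of the small (30S) subunit and 19 as proteins of the large (50S) subunit. All 32 are encoded in the nucleus. Each had 1 fitting probe set, and 14 had a gene symbol in the reference table; the others are given by locus with the protein name of their description.

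Chloroplasts and mitochondria have ribosomes of their own, of the bacterial type, which translate the few proteins that their genomes still encode. Most proteins of these ribosomes are made in the cytosol from nuclear genes and imported. In green tissue the plastid ribosome makes core subunits of the photosystems and the large subunit of Rubisco, and the mitochondrial ribosome makes subunits of the respiratory chain. The deposited descriptions do not always tell the organelles apart: 12 members have a chloroplast in their annotation and 20 have no organelle stated. From general knowledge of the gene families, which the files do not hold, 15 members were taken as plastid ribosomal proteins and 11 as mitochondrial ones. AT1G77750 (S13) and AT3G06040 (L12-C) were put with the mitochondrial members, although their annotation names a chloroplast protein, in both cases as a similar protein. Of the other members, 4 were left without an organelle. PDE338 (AT1G71720), described as an S1 protein, is known as an RNA-binding protein of plastids and not as a subunit. AT1G71710, also described as S1, is a phosphatase in current annotation and is kept here by its description only.

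Transcript levels were measured on 30 Affymetrix arrays, with 3 arrays in each of 5 groups per tissue, and all seedlings were 10 days old. The overexpressor of AtNIGT1.2 and wild type Col-0 were moved at 7 days to plates without a nitrogen source and kept there for 3 days (starved). Seedlings with an estradiol-inducible AtNIGT1.2-VP, an abbreviation that the labels leave unexplained, were put at 9 days on medium with 5 mM NH4NO3, with estradiol (10 mM in the labels) or without it (mock), and kept for 24 h. Wild type also spent 3 days from day 7 on medium with 5 mM NH4NO3 (sufficient). The labels give neither the promoter of the overexpressor nor the number of independent lines. The study set these plants side by side to find direct targets of this factor, which belongs to the NIGT1 group of nitrogen-responsive repressors.

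Values are log2 expression levels after robust multi-array averaging (RMA). The medians of the arrays lay between 6.61 and 6.76 (shoots) or between 6.92 and 7.08 (roots), and arrays of a group correlated with r of at least 0.994. AtNIGT1.2 itself stood at 13.82 to 13.97 in overexpressor shoots, against 6.39, 7.32 and 8.07 in starved wild type shoots, whose 3 arrays therefore spread widely for this gene. In the VP line it stood at 12.38 to 12.63 with estradiol, against 9.48 to 9.64 with mock treatment, in shoots. In roots it stood at 13.60 to 13.75 in the overexpressor, against 7.74 to 7.89 in starved wild type, and at 13.29 to 13.38 with estradiol, against 9.17 to 9.23 with mock treatment. The measured leaf markers RCA, LHCB3 and PSAD1 were above every root array in every shoot array, and all 7 root markers were above every shoot array in every root array. Replicates are biological by the labels, and a p-value speaks only of the spread among these arrays.

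Plastid members had the higher levels in shoots. In 14 of the 15, every shoot array lay above every root array, and in sufficient wild type the median difference, shoots minus roots, was 3.14 on the log2 scale. RPL12-B (AT3G27840), a copy of the stalk protein L12, was the exception, with means of 5.09 in shoots and 4.84 in roots, near the filter on low values, which kept probe sets with a mean at or above the 30th percentile of the tissue (5.03 in shoots and 5.33 in roots). In 7 of the 11 mitochondrial members every shoot array lay below every root array, with a median difference of -0.80 in sufficient wild type. Shoot and root values came in a table each and were taken as normalised apart, so this comparison of levels was not tested. The share of all probe sets that lay apart between the tissues was not counted, so these counts have none beside them. AT2G03130 (L7/L12) and AT5G51610 (L11) had means of 4.58 and 4.08 in shoots and lay below this filter in both tissues, as did RPL12-B in roots, which left 30 members tested in shoots and 29 in roots.

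**Figure D1:**
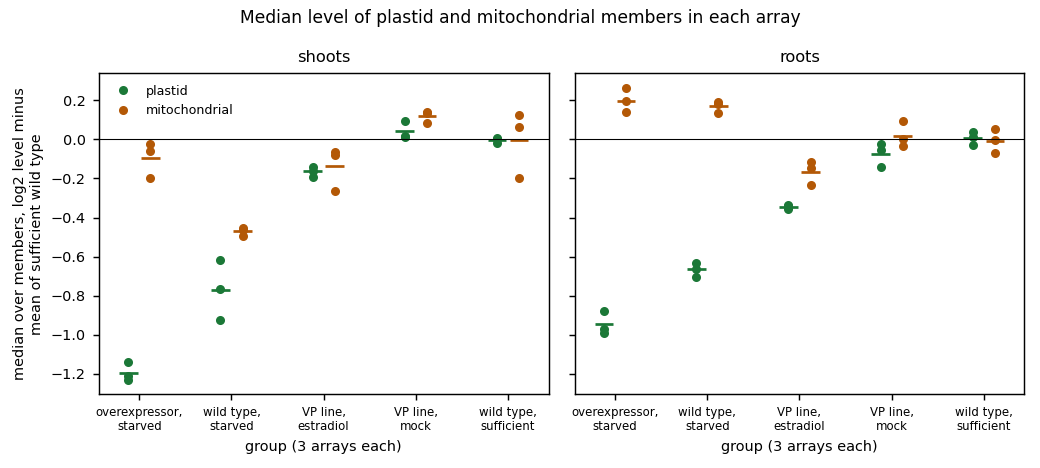
Median over plastid and over mitochondrial members in each array, given as the log2 level minus the member's mean in sufficient wild type; points are arrays, short lines are means of 3 arrays. The plastid medians of the overexpressor lie between -1.23 and -1.14 in shoots, below those of starved wild type (-0.93 to -0.62), whereas the mitochondrial medians of the overexpressor (-0.20 to -0.02) lie above those of starved wild type (-0.50 to -0.45).

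Nitrogen starvation lowered most of these transcripts in shoots. Of 30 members tested, 26 fell and 1 rose in starved against sufficient wild type (limma, Benjamini-Hochberg adjusted p under 0.05), while 26.3% of all 15922 probe sets tested were called lower and 27.8% higher. The median log2 fold change of the members was -0.56, beside 0.00 over all probe sets. Of the 15 plastid members 14 fell, with a median of -0.74. Of the 11 mitochondrial members 9 fell, with a median of -0.49. In bulk tissue, fewer cells of a type and less RNA per cell cannot be told apart. The summed level of the leaf markers RCA, LHCB3 and PSAD1 was 14.69 to 14.85 in starved and 14.980 to 14.998 in sufficient shoots, with 2 of the 3 called lower, and their part in the result was not tested.

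The deepest fall was that of PRPL28 (AT2G33450), the plastid L28 protein of the large subunit. Its levels were 10.52, 10.77 and 10.91 in starved shoots, against 11.77, 11.77 and 11.75 in sufficient shoots. The groups did not overlap, and the difference of -1.03 ± 0.09 (± is the standard error of the fit) corresponds to a level 2.04-fold lower (limma adjusted p = 1.64e-07). RPL27 (AT5G40950), encoding plastid L27, which in Escherichia coli lies near the peptidyl transferase centre, had 10.82, 11.01 and 11.13 in starved shoots, against 11.96, 11.94 and 11.98 in sufficient shoots (-0.97 ± 0.07). PRPS20 (AT3G15190), encoding S20, an early rRNA-binding protein in Escherichia coli, had 11.35, 11.43 and 11.52 in starved shoots, against 12.34, 12.28 and 12.31 in sufficient shoots (-0.87 ± 0.07). The sufficient arrays of these genes lay close together, and the starved ones were more spread, with the first starved array lowest in each.

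RPL15 (AT3G25920), encoding plastid L15, fell by 0.85 ± 0.08 on the log2 scale. PSRP4 (AT2G38140), a plastid-specific protein of the small subunit, fell by 0.84 ± 0.08. PDE338, the plastid S1-domain protein, fell by 0.99 ± 0.10. The remaining plastid members that passed the test lay between -0.78 (AT3G13120, S10) and -0.54 (RPL24, L24). Only RPL12-B did not pass among the 15 (-0.17 ± 0.11, limma adjusted p = 0.21), and it is the member measured nearest the filter. Among mitochondrial members AT1G77750 (S13, at the head of the small subunit in bacteria) fell furthest, by 0.73 ± 0.12, and the subunit protein genes AT5G55140 (L30, -0.15 ± 0.12) and AT2G20060 (L4, -0.13 ± 0.08) did not pass. AT1G71710, which is not known as a ribosomal protein gene, was the only member that rose, by 0.26 ± 0.09 (limma adjusted p = 0.0282); it did not pass without the third starved array (0.21), the second sufficient array (0.19) or the third sufficient array (0.25).

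In roots, starvation split the organelles. Of 29 members tested, 17 fell and 6 rose, beside 21.8% and 33.1% of all probe sets, and the median was -0.33 against 0.06 over all probe sets. All 14 plastid members tested fell, with a median of -0.63, and none rose (limma adjusted p under 0.05, and 0 at an unadjusted p under 0.05). Of the 11 mitochondrial members 6 rose and 1 fell, with a median of 0.23. With the organelle taken from the annotation alone, the 12 chloroplast members gave 10 lower and 2 higher, AT1G77750 and AT3G06040 being the 2 that rose. The leaf markers moved with the plastid members here: their summed level was 9.38 to 9.44 in starved and 10.91 to 10.96 in sufficient roots, all 3 were called lower, and their part in the result was not tested. Of the 7 root markers 4 rose and none fell, with sums of 12.60 to 12.64 in starved and 12.08 to 12.13 in sufficient roots.

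AT2G43030, encoding plastid L3, a protein that starts assembly of the large subunit in Escherichia coli, fell furthest in roots. It had 8.71, 8.74 and 8.69 in starved roots, against 9.67, 9.57 and 9.76 in sufficient roots. The groups stood clearly apart (-0.95 ± 0.06, limma adjusted p = 2.11e-11). RPL24 (AT5G54600), encoding L24, which also acts early in assembly in Escherichia coli, had 8.57, 8.62 and 8.60 in starved roots, against 9.53, 9.44 and 9.57 in sufficient roots (-0.91 ± 0.06). The L6 gene emb2394 (AT1G05190, -0.89 ± 0.10), PDE338 (-0.86 ± 0.08), AT3G56010 (S20 by similarity, -0.81 ± 0.10) and the L31 gene emb2184 (AT1G75350, -0.78 ± 0.07) followed. PRPL28 and RPL27, which had the deepest falls of ribosomal proteins in starved shoots, changed by -0.55 ± 0.09 and -0.47 ± 0.07 in roots, and AT2G43030 and RPL24 changed by -0.58 ± 0.07 and -0.54 ± 0.07 in shoots.

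Among mitochondrial members NFD3 rose most in starved roots. NFD3 (AT1G31817) encodes an S11 protein of the mitochondrial small subunit and is named after a defect in fusion of the nuclei of the female gametophyte. Its levels were 9.22, 9.15 and 9.31 in starved roots, against 8.87, 8.54 and 8.92 in sufficient roots. The lowest of the sufficient arrays was the second, and the groups did not overlap (0.45 ± 0.08, limma adjusted p = 9.41e-05). In shoots NFD3 fell to 7.21, 7.19 and 7.36 in starved plants, against 7.53, 7.81 and 7.71 in sufficient plants (-0.43 ± 0.10). AT3G06040 (L12-C, 0.29 ± 0.07), AT3G12370 (L10, which anchors the stalk in bacteria, 0.27 ± 0.07), AT5G64650 (L17, 0.26 ± 0.08), AT1G77750 (0.25 ± 0.06) and AT1G26740 (L32, 0.23 ± 0.06) also rose in starved roots and fell in starved shoots. Over the 29 members tested in both tissues, 17 fell in both, 6 fell in shoots and rose in roots, and none rose in both, beside 7.45%, 6.49% and 12.3% of the 14550 probe sets tested in both. In 5 of the 6, all but AT5G64650, every starved array lay below every sufficient array in shoots and above it in roots, as in 7.90% of these probe sets. AT5G46160 (L14) was the mitochondrial member that fell in roots (-0.22 ± 0.06); it was not called without the third starved array.

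**Figure D2:**
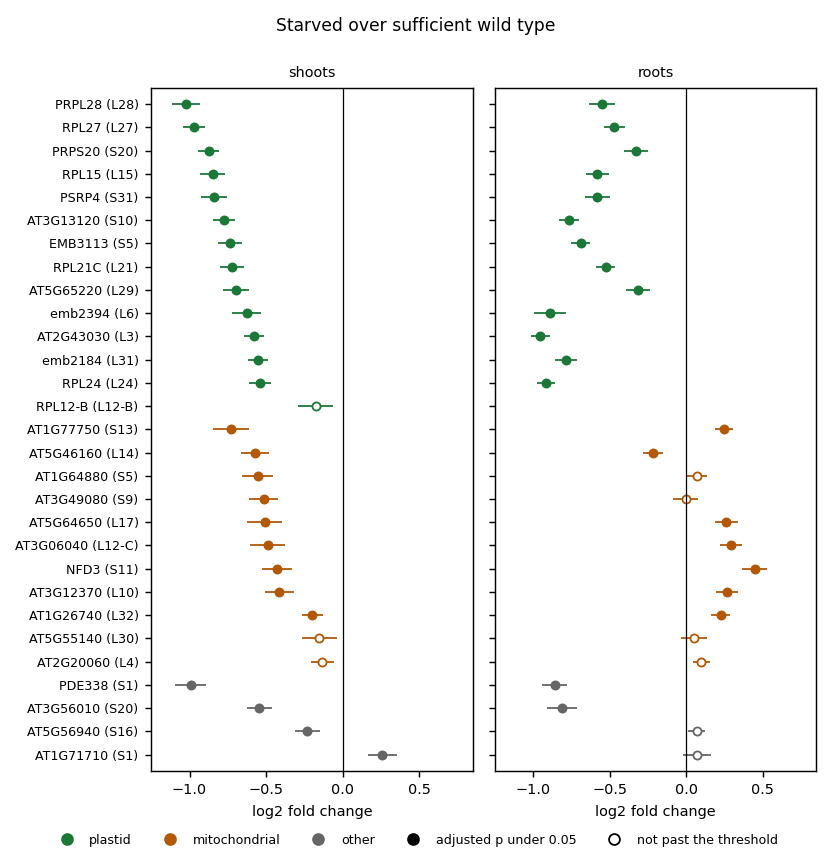
Log2 fold change of starved over sufficient wild type for the members tested, apart from 1 that is not drawn, in shoots (left) and roots (right), with standard errors of the fit; filled points have an adjusted p under 0.05, and members are ordered by organelle and by the change in shoots. Plastid members lie to the left of 0 in both tissues, and mitochondrial members lie to the left of 0 in shoots and mostly to the right in roots.

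AtNIGT1.2 overexpression under starvation separated the organelles in shoots. Of 30 members 16 fell and 6 rose in the overexpressor against wild type, both starved, while 20.7% of all probe sets were called lower and 30.6% higher. The members' median was -0.30, beside 0.06 over all probe sets. Of the 15 plastid members 14 fell and none rose, with a median of -0.44 and changes between -0.68 and -0.23. Of the 11 mitochondrial members 6 rose and none fell, with a median of 0.29, and all 11 had a positive change (limma; 0 plastid members were higher and 0 mitochondrial members lower at an unadjusted p under 0.05). By the annotation alone, the 12 chloroplast members gave 10 lower and 0 higher, and the 18 tested with no organelle stated gave 6 lower and 6 higher. The split by organelle thus rests on the assignment from general knowledge. This comparison shares its 3 arrays of starved wild type with the starvation comparison, so a high or low array there enters both with opposite signs. The summed level of the leaf markers was 14.15 to 14.37 in overexpressor and 14.69 to 14.85 in starved wild type shoots, with all 3 called lower, and their part in the result was not tested.

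AT3G13120, encoding plastid S10, fell furthest. Its levels were 10.32, 10.31 and 10.37 in overexpressor shoots, against 10.84, 11.03 and 11.17 in starved wild type shoots. The lowest wild type array was the first, and it was still above all overexpressor arrays (-0.68 ± 0.07, 1.60-fold lower, limma adjusted p = 1.12e-06). RPL15 had 10.10, 10.04 and 9.91 in overexpressor shoots, against 10.46, 10.75 and 10.80 in wild type shoots (-0.65 ± 0.08). The L6 gene emb2394 (-0.57 ± 0.09), PDE338 (-0.53 ± 0.10), PRPS20 (-0.50 ± 0.07) and the plastid L21 gene RPL21C (AT1G35680, -0.49 ± 0.08) followed. PRPL28, which fell furthest under starvation, changed by -0.33 ± 0.09.

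The largest rise was that of AT3G49080, encoding an S9 protein, which in bacteria reaches the tRNA in the peptidyl site. Its levels were 8.44, 8.43 and 8.79 in overexpressor shoots, against 8.02, 7.92 and 7.93 in starved wild type shoots. The third overexpressor array was highest, and the groups did not overlap (0.60 ± 0.09, 1.52-fold higher, limma adjusted p = 6.01e-05). NFD3 had 7.78, 7.65 and 7.82 in overexpressor shoots, against 7.21, 7.19 and 7.36 in wild type shoots (0.50 ± 0.10). The other mitochondrial members that rose were AT2G20060 (L4, 0.43 ± 0.08), AT5G55140 (L30, 0.42 ± 0.12), AT1G64880 (S5, 0.38 ± 0.10) and AT3G12370 (L10, 0.29 ± 0.10). AT3G12370 was not called without the third overexpressor array (0.23), the first wild type array (0.25) or the third wild type array (0.26).

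In roots overexpression lowered plastid members and left most mitochondrial ones without a call. Of 29 members 12 fell and 2 rose, beside 16.7% and 21.4% of all probe sets, with a median of -0.09 against 0.03 over all probe sets. The 12 that fell were all plastid, of 14 tested, with a plastid median of -0.31. The L31 gene emb2184 had 7.58, 7.57 and 7.53 in overexpressor roots, against 8.14, 8.33 and 8.33 in starved wild type roots. Both groups were tight and stood apart (-0.71 ± 0.07, 1.63-fold lower, limma adjusted p = 9e-08). AT5G65220, encoding plastid L29, which lies by the exit tunnel in bacteria, had 7.86, 7.83 and 7.61 in overexpressor roots, against 8.44, 8.42 and 8.54 in wild type roots (-0.70 ± 0.08). AT3G13120 (-0.45 ± 0.07), RPL24 (-0.44 ± 0.06), emb2394 (-0.39 ± 0.10) and RPL21C (-0.35 ± 0.06) fell less, while PRPS20 (-0.04 ± 0.08) did not pass.

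The summed level of the leaf markers in roots was 7.81 to 7.90 in the overexpressor and 9.38 to 9.44 in starved wild type, with all 3 called lower, and their part in the result was not tested. Of the 7 root markers 2 were called lower and 1 higher, with sums of 12.60 to 12.70 in the overexpressor and 12.60 to 12.64 in starved wild type. Of the mitochondrial members only AT3G49080 rose in roots (0.23 ± 0.08, limma adjusted p = 0.0298). It was not called without the second overexpressor array (0.22), the third overexpressor array (0.21), the first wild type array (0.23) or the third wild type array (0.17). The other gene that rose was AT1G71710, with 8.07, 7.80 and 7.68 in overexpressor roots, against 7.39, 7.24 and 7.44 in wild type roots (0.49 ± 0.09).

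**Figure D3:**
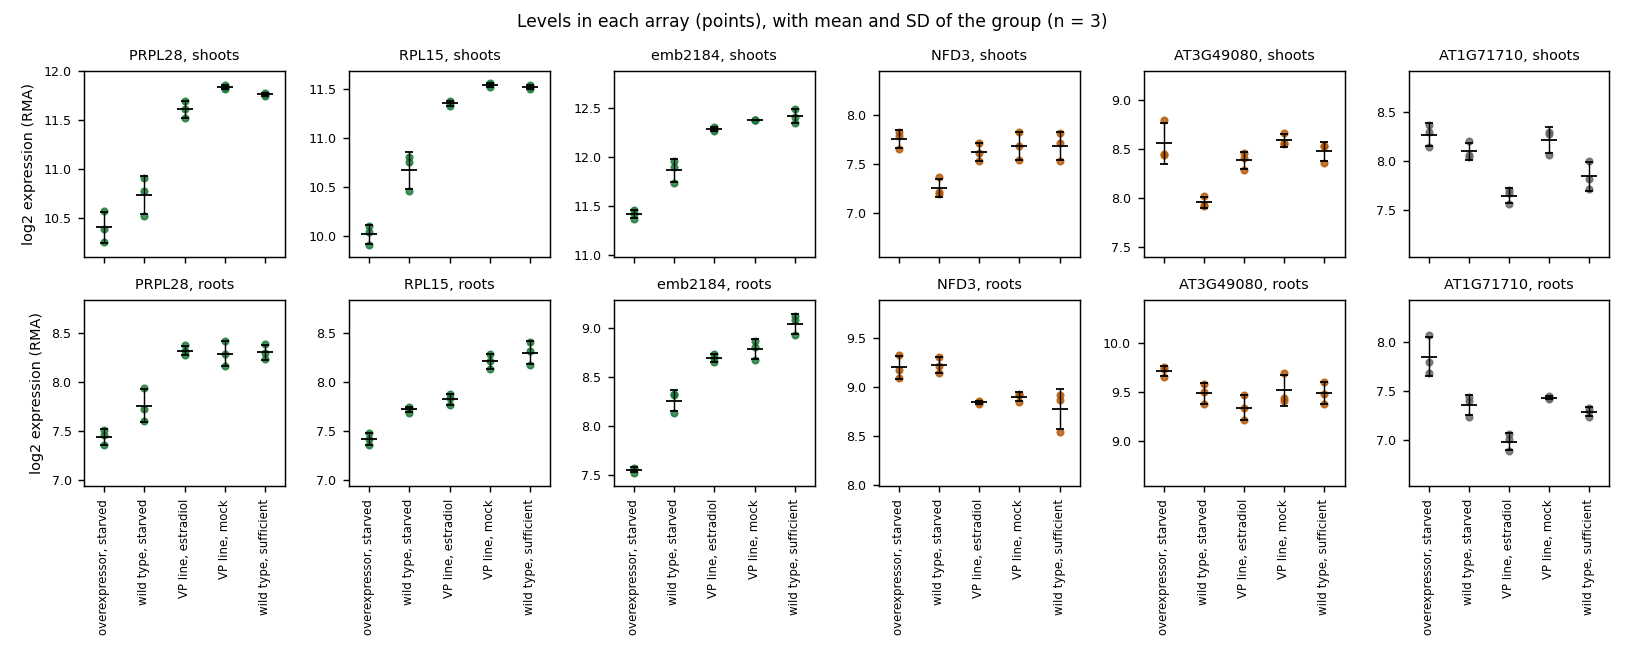
Log2 level of 6 members in every array of shoots (upper row) and roots (lower row), with group means and SD (n = 3); the vertical axes span the same number of log2 units. The means of PRPL28, RPL15 and emb2184 are lowest in the overexpressor in both tissues, and that of NFD3 is lower in starved wild type than in sufficient wild type shoots but higher in roots.

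In the AtNIGT1.2-VP line under sufficient nitrogen, members of both organelles were lower with estradiol than with mock, and none was called higher. Estradiol was given to the VP line only, so an effect of estradiol itself cannot be told apart from that of AtNIGT1.2-VP. In shoots 17 of 30 members fell with estradiol against mock, beside 25.5% of all probe sets, and 0 rose, beside 23.8% (limma). At an unadjusted p under 0.05 by limma, 24 were lower and 0 higher. The shares of all probe sets are at the adjusted threshold and do not apply to these 24. The median was -0.28, against -0.03 over all probe sets. Of the plastid members 7 of 15 fell, with a median of -0.20, and of the mitochondrial members 6 of 11, with a median of -0.29. The plastid count was 4 without the second estradiol array, 11 with the spread taken from the compared groups alone and 12 with arrays centred on their medians; the mitochondrial count was 3 without the first estradiol array. With a change of at least 0.5 asked for as well, 3 members were called, and the share of all probe sets under that rule is not given here. The leaf markers had sums of 14.75 to 14.83 with estradiol and 14.78 to 14.83 with mock, and none of the 3 was called.

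AT5G46160, encoding mitochondrial L14, fell furthest. Its levels were 8.38, 8.61 and 8.64 with estradiol, against 9.23, 9.15 and 9.01 with mock. The first estradiol array was lowest, and the groups did not overlap (-0.59 ± 0.09, 1.51-fold lower, limma adjusted p = 8.08e-05). AT3G56010 (S20 by similarity) had 9.64, 9.71 and 9.70 with estradiol, against 10.30, 10.30 and 10.19 with mock (-0.58 ± 0.08). AT1G71710 (-0.57 ± 0.09), AT1G26740 (L32, -0.43 ± 0.07) and PDE338 (-0.39 ± 0.10) followed. Of these 5, AT3G56010, AT1G71710 and AT1G26740 were also higher in VP shoots with mock treatment, against sufficient wild type shoots. The mean estradiol levels of all 5 lay closer to sufficient wild type than to mock. For PDE338 the means were 8.75 with estradiol, 9.12 in wild type and 9.14 with mock, so the 2 distances were nearly equal.

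In roots 17 of 29 members fell with estradiol, beside 28.3% of all probe sets, and 0 rose, beside 15.6% (limma). The median was -0.21, against -0.07 over all probe sets. At an unadjusted p under 0.05 by limma, 20 were lower and 0 higher, with no share of all probe sets at that threshold. The plastid members gave 10 of 14 lower (median -0.24) and the mitochondrial ones 5 of 11 (median -0.17). AT1G71710 fell by 0.45 ± 0.09, with 7.05, 6.88 and 7.01 with estradiol, against 7.43, 7.44 and 7.42 with mock. AT5G55140 (L30) had 7.97, 8.13 and 8.05 with estradiol, against 8.50, 8.51 and 8.43 with mock, and all estradiol arrays were below all mock arrays (-0.43 ± 0.08, limma adjusted p = 0.00026). The plastid members emb2394 (-0.42 ± 0.10), RPL15 (-0.39 ± 0.07), PSRP4 (-0.37 ± 0.08) and RPL27 (-0.36 ± 0.07) followed. The leaf markers moved with them: all 3 were called lower, with sums of 9.37 to 9.47 with estradiol and 9.88 to 10.18 with mock, and their part in the result was not tested. Of the 7 root markers 3 were called lower and 1 higher, with sums of 12.16 to 12.18 with estradiol and 12.21 to 12.31 with mock.

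**Figure D4:**
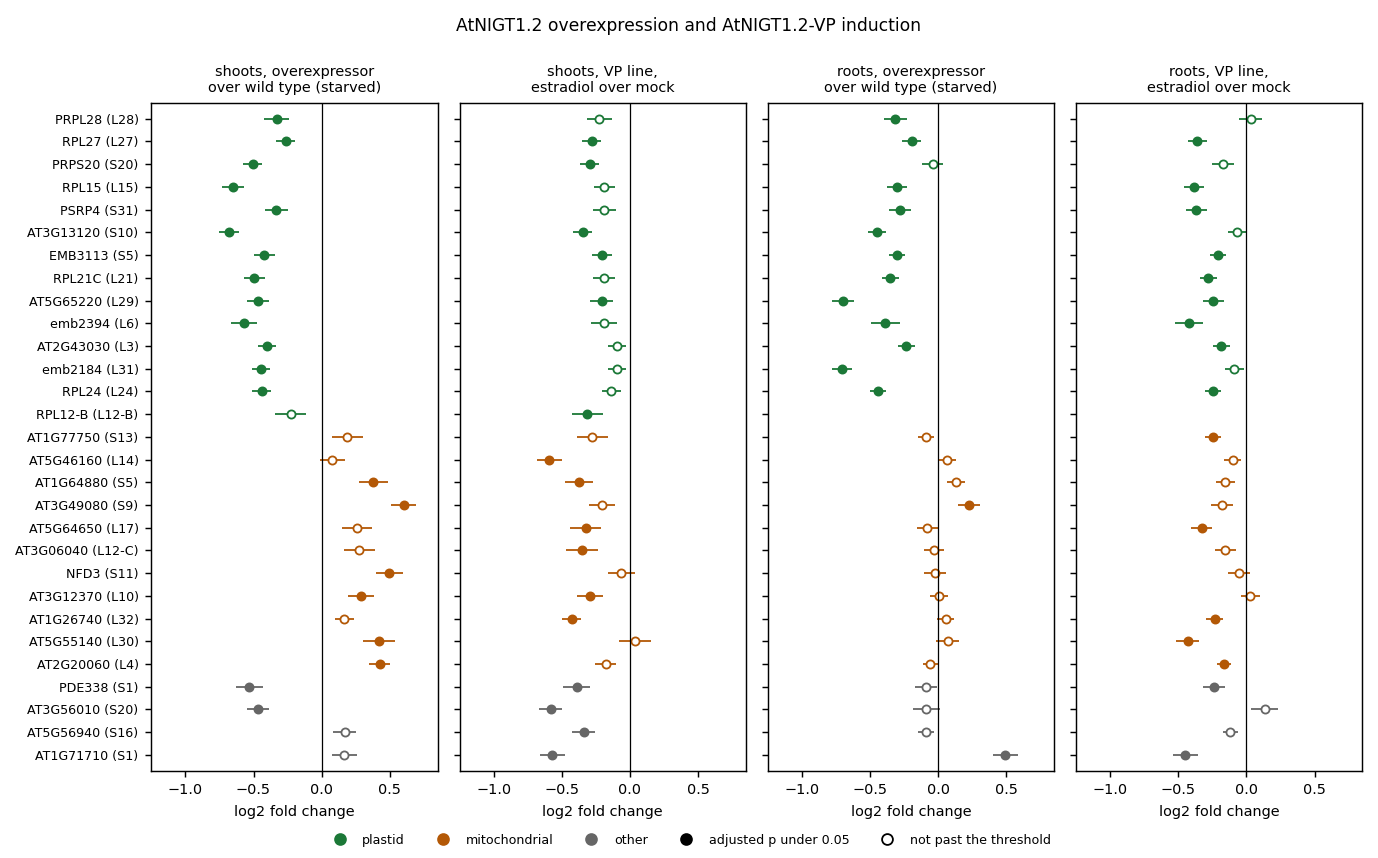
Log2 fold changes of the members tested, apart from 1 that is not drawn, with standard errors of the fit: overexpressor over wild type (both starved) and estradiol over mock in the VP line, in shoots (left pair) and roots (right pair). In shoots the plastid members lie below 0 in both comparisons, and the mitochondrial members lie above 0 with overexpression and, apart from AT5G55140, below 0 with induction.

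The 2 effects share no array, and their difference, overexpression minus induction, was tested in the same fit. In shoots 12 members had a higher and 7 a lower value with overexpression than with induction, beside 25.1% and 18.8% of all probe sets. The 12 included 10 of the 11 mitochondrial members, with a mitochondrial median difference of 0.59, and the 7 were all plastid, with a plastid median difference of -0.26; without the third starved wild type array 4 were called lower. AT1G64880 (S5) was called higher with overexpression and lower with induction (difference 0.75, limma adjusted p = 0.000611). The same held for AT3G12370 (L10, difference 0.58), whose overexpression call was lost without some single arrays, as given above. These 2 of 30 members tested are near the share of all probe sets, 5.31%. No member was called lower with overexpression and higher with induction, beside 4.17%. For the plastid members both effects were negative in all 15, and the difference was negative in 12 and positive in 3; the 7 called are among the 12. In roots 6 members were higher and 4 lower by the same test, beside 29.5% and 17.3% of all probe sets, and AT1G71710 was the only member called in opposite directions, higher with overexpression and lower with induction (difference 0.94), beside 7.85% of all probe sets. This 1 root member does not exceed that share. The plant lines differed in nitrogen supply, age at transfer and time of treatment, and estradiol was given to the VP line only. The difference of effects is therefore also one between these conditions.

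The VP line without estradiol was set against sufficient wild type to see what the line and its handling change. In shoots 5 members were higher and 0 lower in mock-treated VP plants, beside 17.7% and 15.8% of all probe sets (limma). The median was 0.07, against 0.02 over all probe sets. At an unadjusted p under 0.05 by limma, 8 were higher and 0 lower, with no share of all probe sets at that threshold. Without the first sufficient array 1 was called lower. AT1G26740 had 8.52, 8.58 and 8.63 in mock-treated VP shoots, against 8.09, 8.20 and 8.23 in sufficient wild type shoots (0.41 ± 0.07). The groups did not overlap. AT1G71710 (0.37 ± 0.09) was higher as well. In roots 1 member was higher and 2 lower, beside 12.1% and 6.1% of all probe sets, with a median of 0.00 against 0.05. The 2 were emb2184 (-0.26 ± 0.07) and RPL24 (-0.25 ± 0.06), and the 1 was AT5G64650 (L17, 0.28 ± 0.08). AT5G64650 was not called without the first mock array (0.23), the second mock array (0.26), the second sufficient array (0.23) or the third sufficient array (0.26), and emb2184 was not called without the first mock array (-0.20) or the third sufficient array (-0.22). The leaf markers had sums of 9.88 to 10.18 in mock-treated VP roots and 10.91 to 10.96 in sufficient wild type roots, with all 3 called lower (LHCB3 by -1.04 ± 0.07), and 14.78 to 14.83 against 14.980 to 14.998 in shoots, with 1 of 3 called lower. Of the 7 root markers 3 were called higher in VP roots, with sums of 12.21 to 12.31 in VP roots and 12.08 to 12.13 in wild type roots. The part of these markers in the result was not tested. The comparison shares the mock arrays with induction and the sufficient arrays with starvation.

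Genes described as 40S or 60S ribosomal proteins, mostly of the cytosol, were counted in the same way. Of 99 tested in shoots, 94 fell and 2 rose with starvation (median -0.63), 64 rose and 2 fell with overexpression (median 0.26), and 84 fell and 1 rose with induction (median -0.34). Of all probe sets in shoots, 26.3% fell and 27.8% rose with starvation. With overexpression 30.6% rose and 20.7% fell, and with induction 25.5% fell and 23.8% rose. Of 103 tested in roots, 32 rose and 5 fell with starvation (median 0.07), 20 fell and 1 rose with overexpression (median -0.05), and 36 fell and 1 rose with induction (median -0.10). Of all probe sets in roots, 33.1% rose and 21.8% fell with starvation (median 0.06). With overexpression 16.7% fell and 21.4% rose (median 0.03), and with induction 28.3% fell and 15.6% rose (median -0.07). The mitochondrial medians had the sign of the 40S and 60S medians in every one of these but root overexpression, where they were 0.01 and -0.05, and the plastid medians had the opposite sign in shoot overexpression and root starvation. In root starvation and root induction the 40S and 60S medians lay near those over all probe sets, so their signs there carry little weight. These are counts and medians of lists, and no difference between lists was tested.

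Genes that serve the plastid ribosome were listed by their roles. Of all probe sets, 26.3%, 20.7% and 25.5% were called lower in shoots with starvation, overexpression and induction. In roots these shares were 21.8%, 16.7% and 28.3%. The shares called higher were 27.8%, 30.6% and 23.8% in shoots and 33.1%, 21.4% and 15.6% in roots. Of 13 plastid translation factors, 10 fell with starvation, 10 with overexpression and 9 with induction in shoots, and none rose in any of these. RRF, the ribosome recycling factor, fell by 1.21 ± 0.09 with starvation, and AT5G08650, an elongation factor gene of the LepA type, by 0.87 ± 0.08 with overexpression. In roots 11 of 12 fell with starvation, led by SCO1, the plastid elongation factor G gene (-1.33 ± 0.08), 3 with overexpression and 4 with induction. Of 23 genes of plastid ribosome assembly and rRNA processing tested in shoots, 20 fell and 0 rose with starvation, 7 fell and 3 rose with overexpression, and 18 fell and 0 rose with induction. AT4G34730, encoding a ribosome-binding factor of the RbfA type, fell by 0.98 ± 0.11 with overexpression and by 1.22 ± 0.11 with induction. In roots 11 of 21 fell with starvation, 1 with overexpression and 8 with induction.

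Of 23 genes of plastid transcription tested in shoots, 17 fell and 3 rose with starvation, 9 fell and 2 rose with overexpression, and 17 fell and 1 rose with induction. SIGE, a sigma factor of the plastid RNA polymerase, fell by 3.06 ± 0.12 with overexpression in shoots and fell by 1.77 ± 0.14 in roots, and rose by 1.24 ± 0.14 with induction in roots. SIGA, another sigma factor, fell by 1.45 ± 0.08 with overexpression and by 1.03 ± 0.08 with induction in shoots. In roots 7 of 20 fell with starvation, 3 with overexpression and 4 with induction, where 2 rose. Of all probe sets, 26.3%, 20.7% and 25.5% fell in shoots, and 21.8%, 16.7% and 28.3% in roots, in the same order. The root counts with overexpression and induction were not above these shares. Of the mitochondrial translation factors 4 were tested: in shoots 1 fell and 1 rose with starvation, 4 rose with overexpression and 2 fell with induction, and in roots 2 rose with starvation, 2 rose with overexpression and 4 fell with induction. The shares of all probe sets that rose with starvation and overexpression were 27.8% and 30.6% in shoots and 33.1% and 21.4% in roots. MGP3 (AT1G68990), which encodes the mitochondrial RNA polymerase and is kept in this list as it was written, rose by 0.73 ± 0.10 with overexpression in shoots.

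The authors' deposited table holds its own tests of the same comparisons, and its Benjamini-Hochberg values call fewer members: 4 lower and 0 higher with starvation in shoots and 10 lower and 0 higher in roots, 0 lower and 1 higher with overexpression in shoots and 1 lower and 0 higher in roots, and 10 lower in shoots and 9 lower in roots with induction, with 0 higher. Over all 22746 probe sets of a tissue, those Benjamini-Hochberg values called 2868 with starvation, 2131 with overexpression and 2751 with induction in shoots. In roots they called 2533, 990 and 3395, in the same order. The 4 of 32 members with starvation in shoots and the 1 of 32 with overexpression do not stand out beside these. By the q-values of the authors' deposited table, 24 fell and 0 rose with starvation in shoots, and 15 fell and 4 rose in roots. By the same q-values of the authors' deposited table, 11 fell and 4 rose with overexpression in shoots and 7 fell and 0 rose in roots, and 21 fell in shoots and 17 fell in roots with induction, with 0 higher. The calls over all probe sets by these q-values were not counted. Whether the q-value counts stand out can therefore not be judged.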

How the data were processed

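The deposited files of the authors hold RMA values on the log2 scale (per the file headers), whereas MAS5, without a version, appears in the submitters' processing notes. They also hold the authors' log2 fold changes, p-values and q-values, deposited in the same tables; the one for the overexpressor is wild type minus overexpressor, the opposite of the direction used here. A genome build was not given in the sources, so there are no coordinates. All 32 members matched RefSeq (TAIR10.1) for symbols.

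Members were probe sets of 1 locus described as 30S or 50S and not 40S or 60S; 2 probe sets of several loci were left out. Each tissue was fitted alone with limma 3.58.1 (R 4.3.3): group means over 15 arrays, an intensity trend, and the 15922 probe sets at or above the 30th percentile by mean. Tests were two-sided and Benjamini-Hochberg adjusted over all of these, with a threshold of 0.05. Shares of calls over all probe sets are given at this threshold. Counts at an unadjusted p or with a minimum change have none beside them. An exact permutation test of 3 against 3 arrays cannot go below 0.10 and was not used. The fit was tested on simulated data.

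Named members were, per tissue and comparison, the 6 highest and 6 lowest changes (3 and 3 for the uninduced VP line) past the threshold with groups that did not overlap, plastid-specific proteins, members called in opposite directions by overexpression and induction, and the 4 whose starvation changes lay furthest apart between tissues; each of the 4 comparison lists (67 loci) gave up to 4 genes with the smallest adjusted p. Of 5 leaf markers (RBCS1A, RCA, LHCB3, CAB1, PSAD1) 3 had a probe set of 1 locus; the 7 root markers were PIN2, SHR, SCR, CASP1, COBL9, RHD6 and PRP3. A summed level is the log2 of summed linear values. Members and lists were chosen with earlier results of these data known. Alternatives covered the filter, trend, replicate block, groups fitted, centring, series matrix values, probe set of a locus, a minimum change and leaving out each array. Promoter and protein sequences were not used here. The values of 1 member are not reported here; it is included in the counts and medians. The number of arrays limits the precision.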

Additional observations from a re-analysis of the deposited data

Results flagged for a closer look

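Of the members, 5 moved in opposite directions with nitrogen starvation in shoots and roots, every starved array lying below every sufficient array in shoots and above it in roots, and each change passing limma's test within its tissue. All 5 are mitochondrial members. Of the 14550 probe sets tested in both tissues, 7.90% had starved arrays that lay apart in this way, with no call asked for. Of the same probe sets, 6.49% were called lower in shoots and higher in roots. The shoot minus root difference of the log2 fold changes was -0.979 for AT1G77750 (S13; -0.73 ± 0.12 in shoots, 0.25 ± 0.06 in roots), -0.876 for NFD3 (S11; -0.43 ± 0.10 and 0.45 ± 0.08), -0.782 for AT3G06040 (L12-C; -0.49 ± 0.11 and 0.29 ± 0.07), -0.680 for AT3G12370 (L10; -0.41 ± 0.10 and 0.27 ± 0.07) and -0.424 for AT1G26740 (L32; -0.20 ± 0.07 and 0.23 ± 0.06). These differences were not tested, since the tissues were treated as normalised separately. No member moved in this way with overexpression, with induction or in the uninduced VP line. Groups of 3 arrays are too small for the check on single arrays that stand apart from their group.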

How the results depend on the processing

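The counts and medians of the members were recomputed under each alternative. No fold change of a named member changed sign. Among the medians, which have no test, some of those near 0 did: that of overexpression minus induction in shoots (given below), that of all members in the uninduced VP line in roots (0.00, and -0.067 with centred arrays, -0.017 with no filter and down to -0.056 without mock array 1), that of its mitochondrial members (0.03, and -0.039 with centred arrays and -0.035 without mock array 1), and that of mitochondrial members with overexpression in roots (0.01, and -0.015 without overexpressor array 1 and -0.017 without starved array 3). The filter at the 50th percentile, no filter, the series matrix values, the lowest-mean probe set of a locus and the replicate block changed no headline count by over 1.5 times and no call of a named member that was tested under them; PDE338 in starved roots was not tested with the filter at the 50th percentile. The replicate numbers do not pair the arrays: of 30 same-numbered pairs per tissue 2 correlated with r over 0.1 (range -0.51 to 0.14 in shoots and -0.22 to 0.20 in roots), and 1 of 15 shoot arrays and 5 of 15 root arrays correlated best with their own number. Between estradiol and mock shoots r ran from -0.51 (array 1 with array 1) to 0.34 (estradiol array 2 with mock array 1). A spread shared by these 2 groups was not modelled. With the replicate block, 7 members rose with overexpression in shoots in place of 6, 6 were lower in overexpression minus induction in shoots in place of 7, 18 fell with induction in roots in place of 17, and the other counts were equal.

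With arrays centred on their medians, 0 members rose with starvation in shoots, the median with induction in shoots was -0.32, and 6 members were lower in the uninduced VP line in roots. Without the trend, 1 member rose with overexpression in roots. With the spread of the compared groups alone, 0 were higher in the uninduced VP line in roots. With a change of at least 0.5 asked for as well, fewer members were called by construction: in shoots 0 rose with starvation, 1 rose and 5 fell with overexpression, 3 fell with induction, 0 were higher in the uninduced VP line and 0 were lower in overexpression minus induction; in roots 0 rose with starvation, 0 rose and 2 fell with overexpression, 0 fell with induction, 0 were higher and 0 lower in the uninduced VP line, and 1 was higher and 1 lower in overexpression minus induction. Shares of all probe sets with this minimum change are not given here, so these counts have none beside them. The cause of the other shifts was not tested.

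Leaving out 1 array at a time gave, in shoots, 0 to 1 members higher with starvation (0 without starved array 3 or sufficient array 2 or 3) and a median of -0.64 to -0.53. The median with overexpression was -0.39 (without starved array 1) to -0.21 (without starved array 3), and that with induction was -0.30 to -0.24. In the uninduced VP line 0 to 1 members were lower in shoots, 1 of them without sufficient array 1. In overexpression minus induction 4 to 9 were lower, 4 of them without starved array 3, and the median was -0.018 (without starved array 1) to 0.13. In roots the median with starvation was -0.43 to -0.28, and 1 to 2 members rose with overexpression, 1 without overexpressor array 2 or 3 or starved array 1 or 3. In the uninduced VP line 0 to 2 were higher in roots, 2 without sufficient array 1 and 0 without mock array 1 or 2 or sufficient array 2 or 3, and 1 to 3 were lower, 1 without mock array 1 or sufficient array 3. Plastid medians in shoots were -0.79 to -0.68 with starvation and -0.48 to -0.37 with overexpression. The search for promoter motifs was not run. Levels near the filter limit what can be said of RPL12-B, AT2G03130 and AT5G51610.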

Other observations

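Other ribosomal protein genes whose descriptions name an organelle but neither 30S nor 50S were counted beside the members. They were chosen after the descriptions were read, and have counts and medians with no test of the list. Of all probe sets, 26.3%, 20.7% and 25.5% fell in shoots with starvation, overexpression and induction, and 21.8%, 16.7% and 28.3% in roots. The shares that rose were 27.8%, 30.6% and 23.8% in shoots and 33.1%, 21.4% and 15.6% in roots. Of 13 tested nuclear genes with the chloroplast in the description, 12 fell with starvation in shoots (median -0.80), 11 fell with overexpression (-0.39) and 9 fell with induction (-0.30), and 0 rose in each, by limma with Benjamini-Hochberg adjustment. In roots 11 fell with starvation (-0.63) and 5 with overexpression (-0.20), with 0 higher in either, and 9 fell and 1 rose with induction (-0.22). RPL9 changed by -1.18 ± 0.07 in starved shoots, and EMB3137 (AT5G14320) by -1.07 ± 0.06 in starved roots.

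Of 4 nuclear genes with the mitochondrion in the description, 4 fell with starvation in shoots (median -0.44) and 3 rose with overexpression in shoots (0.31). RPS2 (AT3G03600) changed by -0.55 ± 0.08 with starvation and by 0.61 ± 0.08 with overexpression in shoots. In roots 1 of the 4 rose with starvation, 2 fell with overexpression and 3 fell with induction.

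The ribosomal protein genes of the plastid genome, which the chloroplast itself transcribes, had 17 probe sets tested in shoots and 16 in roots. In shoots 0 rose and 0 fell with starvation (median -0.04), 2 rose with overexpression (-0.21) and 7 rose with induction (0.44). Of all probe sets in shoots 27.8%, 30.6% and 23.8% rose, in the same order, and 26.3% fell with starvation. The starvation changes ran from -0.49 to 0.54, so the lack of calls does not show that these levels were steady. In roots 11 fell with starvation (-0.56), 8 fell with overexpression (-0.31) and 2 fell with induction (-0.15), beside 21.8%, 16.7% and 28.3% of all probe sets. ATCG00065 changed by 1.11 ± 0.31 with induction in shoots, and ATCG00810 by -0.59 ± 0.05 with starvation in roots. Per the labels' protocols the arrays were labelled with a 3' kit, and plastid transcripts mostly lack the long poly(A) tail of nuclear ones; the part of this in the values was not tested.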
